A study of Mus musculus with 11 samples.

Results

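Oxidative phosphorylation is the chain of mitochondrial inner membrane complexes that carries electrons from NADH and succinate to oxygen and uses the resulting proton gradient to make ATP. Complex I (NADH dehydrogenase) and complex II (succinate dehydrogenase) feed electrons into the chain, complex III (the cytochrome bc1 complex) passes them to cytochrome c, complex IV (cytochrome c oxidase) reduces oxygen, and complex V is the ATP synthase. Most subunits are encoded in the nucleus and a core set in the mitochondrial genome, and several complex IV subunits exist as isoforms that differ between tissues. The nuclear genes of this system were selected by symbol, as all genes named *Nduf*, *Sdh*, *Uqcr*, *Cox4* to *Cox8* or *Atp5* in the pattern used for subunits, together with *Cyc1* and *Cycs*. This rule used no expression value and took 83 of the 18305 genes in the count table. Of these, 35 belong to complex I, 4 to complex II, 9 to complex III, 1 is cytochrome c, 17 belong to complex IV (*Ndufa4*, named for complex I, is placed here), 15 belong to complex V, and *Atp5s* and *Atp5sl* carry the family name without being counted as subunits.

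The study asked how organoids of mouse oviduct and ovarian surface epithelium (OSE) compare with their tissues of origin and how tumor mutations change the oviductal ones. The 27 RNA-seq libraries came from C57BL/6 oviduct tissue (n = 3), OSE tissue (n = 3), wild-type oviductal organoids (n = 3) and OSE organoids from 2 lines. Further oviductal organoids came from mice that express Cas9 and EGFP ubiquitously (Cas9-GFP organoids, n = 3), and TBP clones (n = 3) are clonal lines of these that had been transfected with guide RNAs against *Trp53* and other tumor suppressor genes and selected with Nutlin-3a, an activator of p53 that removes cells with a working *Trp53*. TBP tumors (n = 6) grew from such clones in immunodeficient NSG mice. Their tissue may hold cells of the host, whose share was not measured. The 4 tumor-derived organoid lines were labelled mesenchymal (T1-mes, T3-mes) or epithelial (T2-epi, T4-epi) and were grown with Nutlin-3a. Oviductal and OSE organoids were grown in the same medium. Tissue and tumor RNA was extracted by a different method from organoid RNA, so the extraction and the culture cannot be told apart. The study describes its replicates as independent tissue samples, organoid lines and subcutaneous tumors, and the third OSE line as left out for contamination. The labels do not tie single libraries to animals or to clones. The study reports fewer independent clones per set of mutations than there are TBP clone libraries here. Some of these libraries may therefore share a clone. It describes the tumor-derived organoids as coming from the same original TBP clone, and tumors may share clones as well. The tests below treat all libraries of a group as independent.

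Library totals ran from 82239 counts in TBP clone 1 to 4531767 in TBP clone 3, so a floor of 3 counts stood at 33.5 CPM (counts scaled to a common library size) in the former and 0.684 CPM in the latter. *Ovgp1*, the secretory marker of the oviduct, stood at 72757 to 114196 CPM in oviduct tissue and at 65.8 to 118 CPM in OSE tissue. Wild-type oviductal organoids had 14636 to 22938 CPM of it, but Cas9-GFP organoids, labelled oviductal as well, had 66.3 to 95.0 CPM, and OSE organoids 2 had 3243 CPM against 19.1 CPM in OSE organoids 1. The *eGFP* entry was at 0 in all 3 Cas9-GFP libraries. *Trp53* stood at 34.5 to 61.0 CPM in Cas9-GFP organoids and at 0, 0.536 and 5.02 CPM in the TBP clones. It was at 4.37 to 9.22 CPM in the tumor-derived organoids and at 18.3 to 57.1 CPM in the tumors. The 3 erythroid markers in the table summed to 133 to 7033 CPM in the tumors and to 0 in all organoids, TBP clones included. Oviduct tissue held 329 to 891 CPM of them and OSE tissue 45.4 to 417 CPM. The part of host cells in the tumor values was not tested. OSE tissue carried all 7 granulosa cell markers present in the table at a summed 4700 to 5750 CPM, against 56.6 to 141 CPM in oviduct tissue, and all 7 steroidogenic cell markers at 6350 to 7818 CPM against 68.9 to 253 CPM. Oviduct tissue carried the 9 smooth muscle markers at 5836 to 7381 CPM, against 587 to 825 CPM in OSE tissue. In bulk libraries of this kind, fewer cells of a type and less RNA per cell cannot be told apart.

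The summed level of the 83 genes was highest in the healthy tissues and wild-type organoids and lowest in tumors and tumor-derived organoids. Oviduct tissue held 22003 ± 1079 CPM (SD, n = 3), OSE tissue 19291 ± 1659 CPM (SD, n = 3) and oviductal organoids 22628 ± 1528 CPM (SD, n = 3). The OSE lines held 27080 and 21253 CPM. Cas9-GFP organoids held 17043 ± 557 CPM (SD, n = 3), below every wild-type organoid library. TBP clones held 18867 ± 2386 CPM (SD, n = 3), with TBP clone 1, the shallowest library, at 21306 CPM. The 6 tumors ranged from 12199 to 18300 CPM with a mean of 14834 ± 2286 CPM (SD), and the highest of them, tumor 5, lay below the lowest oviduct tissue library at 21108 CPM. The tumor-derived organoids averaged 14681 CPM in the mesenchymal and 14707 CPM in the epithelial pair. These sums are levels and carry no test.

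**Figure D1:**
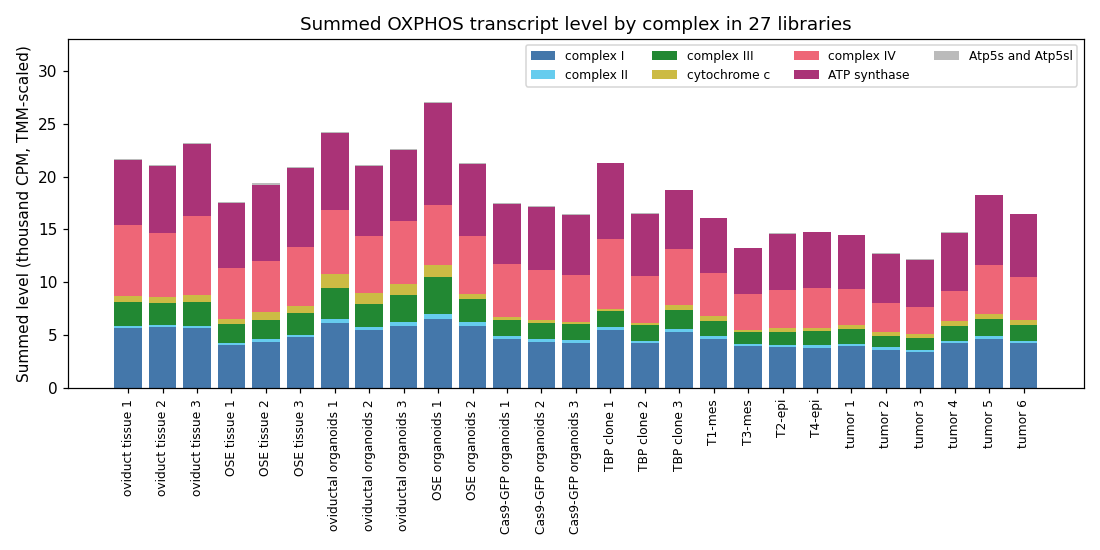
Summed level of the nuclear oxidative phosphorylation genes in each of the 27 libraries, in CPM on a linear axis, with bars stacked by complex. Tumors (12199 to 18300 CPM) sit below oviduct tissue (21108 to 23201 CPM), and the Cas9-GFP organoids (16428 to 17512 CPM) sit below the wild-type oviductal organoids (21130 to 24184 CPM).

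Many of these genes are known to be bound near their start sites by NRF1 (nuclear respiratory factor 1), by ETS family proteins and by YY1. Promoter windows of 300 bases (250 before to 50 after the start, RefSeq, GRCm38.p6) were found for 69 of the 83 genes and were searched on both strands. The NRF1 letters GCATGCGC occurred in 11 of the 69 windows (15.9%), against 2.8% of all 27025 promoter windows. The ETS letters CCGGAAG were in 15 windows (21.7%, against 9.12% of all) and the YY1 letters AAGATGGCG in 7 (10.1%, against 1.49%). The cyclic AMP response element TGACGTCA was in 5 windows (7.25%, against 1.88%), and the E box CAGCTG, a motif of muscle promoters, was in 6 (8.7%, against 16.1%). The ETS and YY1 letters can share the bases AAG. A match is a string of letters and not a bound site. The windows printed here are those of *Cycs* and *Uqcrh*, which had the largest falls in Cas9-GFP organoids, and of *Cox8b*, a muscle isoform with reads in tumors only. Each is written on the minus strand, 5′ to 3′, and capitals mark the motif matches (the response element and NRF1 letters in *Cycs*, the ETS letters read on the opposite strand in *Uqcrh*, and E boxes in *Cox8b*). The windows lie at chr6:50566520-50566819, chr4:116075021-116075320 and chr7:140900397-140900696 in the same order.
Cycs: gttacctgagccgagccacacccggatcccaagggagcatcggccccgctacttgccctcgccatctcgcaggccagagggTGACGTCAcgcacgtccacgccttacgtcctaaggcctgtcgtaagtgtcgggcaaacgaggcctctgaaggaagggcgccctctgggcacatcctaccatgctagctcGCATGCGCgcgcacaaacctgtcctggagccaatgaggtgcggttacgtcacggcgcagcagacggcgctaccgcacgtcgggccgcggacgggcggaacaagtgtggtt
Uqcrh: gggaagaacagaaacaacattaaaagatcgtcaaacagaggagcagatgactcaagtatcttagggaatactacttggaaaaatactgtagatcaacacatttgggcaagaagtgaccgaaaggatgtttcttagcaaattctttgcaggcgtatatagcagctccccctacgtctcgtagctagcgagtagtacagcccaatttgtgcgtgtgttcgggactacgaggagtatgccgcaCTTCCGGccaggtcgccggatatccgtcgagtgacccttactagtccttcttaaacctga
Cox8b: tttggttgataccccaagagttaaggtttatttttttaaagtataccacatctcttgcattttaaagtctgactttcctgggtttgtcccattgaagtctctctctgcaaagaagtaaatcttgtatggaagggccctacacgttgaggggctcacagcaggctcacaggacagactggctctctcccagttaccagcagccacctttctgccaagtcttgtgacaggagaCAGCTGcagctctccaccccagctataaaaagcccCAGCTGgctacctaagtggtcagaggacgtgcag

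The first comparison set oviduct tissue against OSE tissue. A gene is called higher or lower where the edgeR quasi-likelihood test, adjusted over all genes tested, gave p under 0.05. Of the 77 nuclear genes tested, 20 were higher in oviduct tissue and 13 lower, where 26.9% and 24.3% of all 8787 genes tested were, so neither share stands above that of all genes. A fit of all 27 libraries, which share 1 estimate of the spread, called 10 of them (8 higher, 2 lower) and 23.2% of all genes, against 51.2% in the fit of these libraries alone. Their median log2 fold change was 0.14, against 0.00 for all genes. The called genes lay in every complex but II, with 11 higher and 5 lower among the 34 tested of complex I, 3 and 3 of 9 in complex III, 4 and 2 of 13 in complex IV and 2 and 3 of 15 in complex V. Of the 12 tested genes of the mitochondrial genome, 10 were higher in oviduct tissue and 0 lower.

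*Ndufa1* (chromosome X, 37187588 to 37191163, GRCm38), an accessory subunit needed to assemble complex I, stood at 602, 626 and 587 CPM in oviduct tissue and at 178, 295 and 270 CPM in OSE tissue. The groups did not overlap, and the log2 fold change was 1.32 ± 0.18 (SE, adjusted p = 2.82e-05). *Ndufc2*, another accessory subunit of complex I, differed in the same direction, with 549, 541 and 387 CPM against 176, 204 and 251 CPM (log2 fold change 1.25 ± 0.18, SE, adjusted p = 3.93e-05). *Cox7b* of complex IV stood at 267, 321 and 257 CPM against 104, 170 and 182 CPM (0.91 ± 0.20 on the log2 scale, SE, adjusted p = 0.00133). A large difference in the opposite direction was seen for *Cox4i2* (chromosome 2, 152754173 to 152765037), the isoform of subunit 4 known from lung and from oxygen-sensing cells. It had 5.08, 2.63 and 4.89 CPM in oviduct tissue and 55.9, 23.3 and 41.4 CPM in OSE tissue. It passed the filter on low counts through OSE tissue alone, so its levels are given without a test, and 12 genes were lower without it. *Cyc1*, the heme subunit of complex III, was also lower in oviduct tissue, at 63.1, 51.3 and 50.1 CPM against 118, 87.3 and 88.1 CPM (-0.79 ± 0.19 on the log2 scale, SE, adjusted p = 0.00280), a call that was lost in a fit of all 27 libraries (adjusted p = 0.0547). *Cox6b2*, the isoform of subunit 6b known from testis, stood at 18.1, 9.21 and 15.9 CPM against 43.2, 21.0 and 26.0 CPM. Its difference (log2 fold change -0.98, adjusted p = 0.0229) was no longer called without oviduct tissue 2 (adjusted p = 0.0752) or without OSE tissue 1 (adjusted p = 0.107), with DESeq2 (adjusted p = 0.0758) or in the fit of all libraries (adjusted p = 0.351). The granulosa, steroidogenic and smooth muscle marker sums given above differ between the same libraries, and their part in these differences was not tested.

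Oviductal organoids were next compared with oviduct tissue. Most of the called genes were higher in culture, 25 of 78 tested (18.7% of all 9477 genes tested were higher), and 9 were lower (24.2% of all). The median log2 fold change was 0.30 for the nuclear genes and -0.02 for all genes. Higher genes came from each complex: 9 of 34 tested in complex I, 2 of 4 in complex II, 2 of 9 in complex III, 5 of 13 in complex IV and 6 of 15 in complex V, and cytochrome c was higher as well. Without oviduct tissue 1 the calls numbered 20 in all, against 34 with it, and the fit of all libraries gave 17 (25.5% of all genes). Other genes of energy metabolism were counted alongside. Glycolysis genes were higher in 12 and lower in 1 of 16 tested, hypoxia response genes higher in 6 and lower in 0 of 8, and assembly factors of the respiratory complexes higher in 3 and lower in 7 of 42.

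*Cycs* (chromosome 6, 50562563 to 50566538), the soluble carrier between complexes III and IV, stood at 561, 559 and 617 CPM in oviduct tissue and at 1390, 1035 and 1069 CPM in oviductal organoids. Every organoid library lay above every tissue library (log2 fold change 0.99 ± 0.16, SE, adjusted p = 0.000449). *Cox5a* (chromosome 9, 57521274 to 57532426), a nuclear subunit that caps complex IV on the matrix side, was at 147, 139 and 152 CPM in tissue and at 496, 394 and 411 CPM in organoids (1.55 ± 0.16 on the log2 scale, SE, adjusted p = 1.60e-05). *Uqcr10*, a small subunit of complex III, rose from 107, 103 and 117 CPM to 252, 230 and 255 CPM (log2 fold change 1.16, adjusted p = 0.000144). *Atp5f1* (chromosome 3, 105942698 to 105960099), a peripheral stalk subunit of ATP synthase, was at 18.9, 5.26 and 17.1 CPM in tissue and at 51.5, 44.9 and 34.8 CPM in organoids (1.59 ± 0.36 on the log2 scale, SE, adjusted p = 0.00359), and it shares sequence with a near-identical copy, so its count is uncertain.

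Not every gene moved with the median. *Ndufa1* fell from the tissue values above to 269, 254 and 264 CPM in oviductal organoids (log2 fold change -1.22 ± 0.15, SE, adjusted p = 4.56e-05), within the range of OSE tissue (178 to 295 CPM). *Cox6c*, a small subunit of complex IV, stood at 2563, 2001 and 2612 CPM in tissue and at 1116, 967 and 1416 CPM in organoids (-1.05 ± 0.19 on the log2 scale, SE, adjusted p = 0.000745). *Atp5j*, which joins the stalk of ATP synthase to its membrane part, fell by 0.88 on the log2 scale, from 2111, 2136 and 2154 CPM to 1283, 1133 and 1098 CPM. It too has a near-identical copy, and its call was lost in the fit of all libraries (adjusted p = 0.0816). Fibroblast markers, summed over 9 genes, went from 3922 to 7162 CPM in oviduct tissue to 7.87 to 11.8 CPM in these organoids, with 5 of the 9 at 0 in all of them. Smooth muscle markers went from 5836 to 7381 CPM to 105 to 122 CPM (9 of 9 lower). Ciliated cell markers went from 1327 to 2120 CPM to 143 to 307 CPM (8 of 8 lower). Epithelial markers went from 1595 to 2013 CPM to 4575 to 6050 CPM (5 of 7 higher, 0 lower). The part of these markers was not tested.

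OSE organoids differed from OSE tissue in the same direction at the median. Of 80 genes tested, 19 were higher in culture (14.5% of all 10232 genes tested) and 2 were lower (18.6% of all). The median log2 fold change was 0.39, against -0.06 for all genes. The count depended on single libraries, with 38 calls without OSE organoids 2 and 11 calls without any 1 of the 3 OSE tissue libraries. *Ndufb10* of complex I stood at 27.9, 24.5 and 27.1 CPM in tissue and at 134 and 82.6 CPM in the lines (2.03 ± 0.28 on the log2 scale, SE, adjusted p = 0.00271). *Cox7b* rose from the tissue values above to 640 and 419 CPM (log2 fold change 1.82, adjusted p = 0.00619), and *Cox5a* from 144, 126 and 131 CPM to 485 and 349 CPM (log2 fold change 1.66, adjusted p = 0.00301). Both lines lay above all OSE tissue libraries for each of these genes. The 2 genes counted as lower were isoforms of complex IV. *Cox4i2* had 0 CPM in both lines and was at least 21.1-fold lower than in OSE tissue, taking the floor of 3 counts per library as the level. *Cox6b2* (chromosome 7, 4751792 to 4753094) was at 0.763 and 2.03 CPM. Both passed the filter on low counts through OSE tissue alone, which fixes their direction, so no p-value is printed, and without them 0 genes were lower. Of the glycolysis genes, 14 were higher and 1 lower of 16 tested, and the hypoxia response genes were higher in 9 and lower in 0 of 9. Between the same libraries the granulosa marker sum went from 4700 to 5750 CPM in OSE tissue to 39.7 and 80.5 CPM in the lines (7 of 7 tested lower), the steroidogenic sum from 6350 to 7818 CPM to 72.5 and 91.7 CPM (6 of 7 lower) and the fibroblast sum from 1825 to 3321 CPM to 1.53 and 41.5 CPM (9 of 9 lower). Epithelial markers went from 373 to 444 CPM to 5714 and 6766 CPM (6 of 6 higher). Their part in these differences was not tested.

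Between the organoids of both origins, no nuclear gene was called in either direction by edgeR, among 78 tested, and the shares of all 9257 genes were 0.0864% higher and 0% lower in oviductal organoids. DESeq2 also called 0, and 3 genes had an unadjusted p under 0.05 (*Cox6b2*, *Ndufa4* and *Ndufa9*). Over all genes, 11.5% had one. *Cox6b2* passed the filter on low counts through the oviductal organoids alone. Leaving out OSE organoids 2 gave 2 calls and leaving out OSE organoids 1 gave 1. The interaction of origin and culture, which asks whether the difference between organoids and tissue was unequal for oviduct and OSE, was called for 1 gene in the positive and 3 in the negative direction of 80 tested, against 5.0% and 6.68% of all 11458 genes.

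Cas9-GFP organoids differed from wild-type oviductal organoids mainly by lower values. Of 77 genes tested, 25 were lower (13.3% of all 8323 genes tested) and 2 higher (13.0% of all), and the median log2 fold change was -0.30, against 0.00 for all genes. The lower genes were 9 of 34 in complex I, 1 of 4 in complex II, 4 of 9 in complex III, 5 of 12 in complex IV and 5 of 15 in complex V, together with cytochrome c. The fit of all libraries called 13 lower and 1 higher, with 8.7% of all genes called. Of the mitochondrially encoded genes, 1 was higher and 5 lower of 13. The glycolysis genes were higher in 5 and lower in 1 of 16. Both groups are labelled oviductal organoids, but they also differed in *Ovgp1*, and genotype, mouse line and any batch cannot be told apart here. Ciliated cell markers were lower in 3 and higher in 0 of 5 tested, and epithelial markers lower in 4 and higher in 1 of 7. The part of these markers was not tested.

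*Cycs* had the largest fall. Its level was 230, 276 and 209 CPM in Cas9-GFP organoids, far below the wild-type values given above (log2 fold change -2.28 ± 0.19, SE, adjusted p = 1.11e-05). *Uqcrh* (chromosome 4, 116066965 to 116075071), the hinge subunit of complex III that docks cytochrome c, stood at 828, 669 and 717 CPM in wild-type and at 202, 197 and 198 CPM in Cas9-GFP organoids (-1.88 ± 0.17 on the log2 scale, SE, adjusted p = 1.49e-05). The carrier and a subunit of the complex that loads it were thus both below every wild-type library. The wild-type organoid libraries also serve in the comparison with tissue, where *Cycs* was higher in culture, and its level in Cas9-GFP organoids lay below the 559 to 617 CPM of oviduct tissue as well. *Ndufb6* of complex I went from 283, 222 and 225 CPM to 82.2, 86.3 and 66.3 CPM (log2 fold change -1.63 ± 0.20, SE, adjusted p = 0.000136). *Sdhd*, a membrane anchor of succinate dehydrogenase, was at 54.8, 44.0 and 57.1 CPM in wild-type and at 19.1, 13.8 and 24.6 CPM in Cas9-GFP organoids (log2 fold change -1.40, adjusted p = 0.00346). *Uqcrc1*, a core protein of complex III, and the complex I core subunit *Ndufs7* were the only genes called higher. *Uqcrc1* rose from 54.4, 46.5 and 65.6 CPM to 109, 89.8 and 95.2 CPM (log2 fold change 0.83), and its call was lost without Cas9-GFP organoids 1 (adjusted p = 0.0669) or without oviductal organoids 2 (adjusted p = 0.0504) and in the fit of all libraries (adjusted p = 0.0798). *Ndufs7* went from 18.6, 18.6 and 13.8 CPM to 23.9, 43.2 and 42.8 CPM (log2 fold change 1.09), and its call was lost without Cas9-GFP organoids 2 or 3 (adjusted p = 0.0838 and 0.105) or without oviductal organoids 2 or 3 (adjusted p = 0.0521 and 0.0979) and with DESeq2 (adjusted p = 0.0740).

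**Figure D2:**
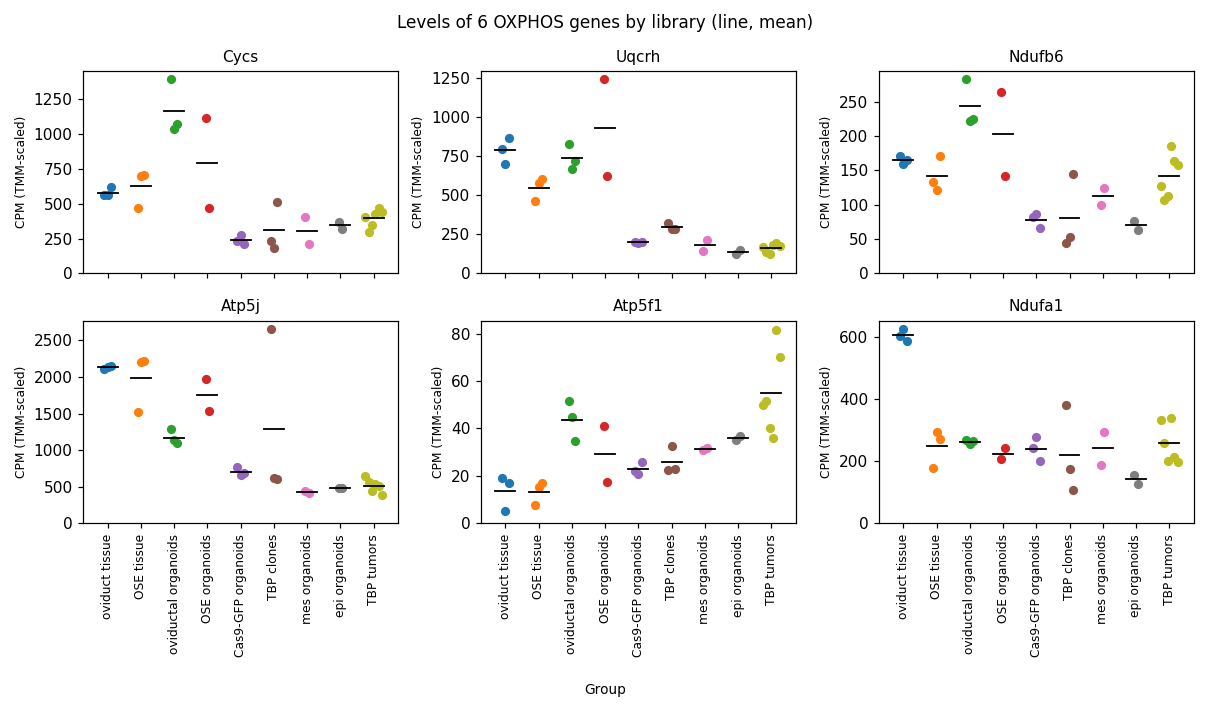
Level of *Cycs*, *Uqcrh*, *Ndufb6*, *Atp5j*, *Atp5f1* and *Ndufa1* in every library, in CPM on linear axes, with 1 point per library and a line at each group's mean. *Cycs* stands at 1035 to 1390 CPM in wild-type oviductal organoids and at 209 to 276 CPM in Cas9-GFP organoids, and *Ndufa1* stands highest in oviduct tissue at 587 to 626 CPM.

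TBP clones did not differ from Cas9-GFP organoids in any nuclear gene that was called. edgeR called 0 of 77, where it called 0.389% of all 7708 genes higher and 0.428% lower. DESeq2 called 0 as well, with 1.13% of all genes called in either direction. An unadjusted p under 0.05 in edgeR was reached by 2 genes, *Ndufa6* and *Uqcrc1*, and by 9.95% of all genes. *Cycs* was at 235, 183 and 512 CPM in the clones, on both sides of the Cas9-GFP values. *Uqcrh* stood at 324, 282 and 285 CPM, above the 3 Cas9-GFP libraries but short of a call. The depth of TBP clone 1, whose floor stands at 33.5 CPM, limits this comparison, and *Atp5j* stood at 2659 CPM there against 613 and 606 CPM in the other clones. The mesenchymal and epithelial tumor-derived organoids were likewise without a call, 0 of 78 by edgeR, which called 1.0% of all 9775 genes higher in the mesenchymal lines and 0.123% lower, and 0 by DESeq2. *Cox6c* and *Cox7a1* were the 2 genes with an unadjusted p under 0.05, which 14.1% of all genes had, and *Cox7a1* passed the filter through the epithelial lines alone. With 2 lines a side here, and 3 libraries a side with a shallow TBP clone 1 above, neither result shows that the groups are alike.

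TBP tumors were compared with oviduct tissue, with the TBP clones and with the tumor-derived organoids. These 3 comparisons share the tumor libraries, and oviduct tissue is the same as in the comparisons above, so their counts are given side by side. Against oviduct tissue, 31 of 80 genes were lower (22.4% of all 10827 genes tested) and 9 higher (23.7% of all). The median log2 fold change was -0.24, and 0.08 for all genes. The lower genes were 13 of 34 in complex I, 4 of 9 in complex III, 7 of 15 in complex IV and 5 of 15 in complex V, while complex II had 0 calls in either direction among its 4 genes. Complex V was split, with 5 genes higher. Of the assembly factors, 14 of 44 were lower and 4 higher, and of the tricarboxylic acid cycle enzymes, 6 of 18 were higher and 2 lower. Without tumors 5 and 6, 40 genes were called, as with them.

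*Cox4i1* (chromosome 8, 120668222 to 120674207), the general isoform of subunit 4, stood at 286, 307 and 392 CPM in oviduct tissue and at 69.9, 34.1, 57.9, 57.7, 69.4 and 76.7 CPM in tumors 1 to 6. No tumor came near the lowest tissue library (log2 fold change -2.46 ± 0.23, SE, adjusted p = 4.04e-05). *Uqcrh* was at 794, 701 and 863 CPM in tissue and between 127 and 195 CPM in the tumors (-2.30 ± 0.17 on the log2 scale, SE, adjusted p = 1.40e-05). *Atp5j* (chromosome 16, 84827866 to 84835625) ran from 385 to 646 CPM in the tumors, below all tissue libraries (log2 fold change -2.09 ± 0.17, SE, adjusted p = 2.35e-05). *Cox6b1* and *Cox8a*, general isoforms of complex IV, fell by 1.62 and 1.12 on the log2 scale (adjusted p = 7.90e-05 and 0.00333). On the other side, *Atp5f1* ran from 36 to 81.7 CPM in the tumors, above all 3 tissue libraries (1.92 ± 0.40 on the log2 scale, SE, adjusted p = 0.00334). *Atp5h*, also of the peripheral stalk, stood at 281, 274 and 385 CPM in tissue and at 459 to 1139 CPM in the tumors (log2 fold change 1.08), and its call was lost without oviduct tissue 1 (adjusted p = 0.0844) or 2 (adjusted p = 0.0804). Both *Atp5f1* and *Atp5h* have near-identical copies. Fibroblast markers stood at 10912 to 58184 CPM in the tumors against 3922 to 7162 CPM in oviduct tissue, and myeloid markers at 1242 to 2332 CPM against 186 to 227 CPM. Markers of ciliated cells went from 1327 to 2120 CPM in oviduct tissue to 1.75 to 43.0 CPM in the tumors (8 of 8 lower), those of oviductal secretory cells from 73713 to 115071 CPM to 14.0 to 289 CPM (4 of 4 lower) and those of smooth muscle from 5836 to 7381 CPM to 234 to 1196 CPM (8 of 9 lower). Their part in these differences was not tested.

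Against the TBP clones, 18 of 79 genes were lower (11.7% of all 10473 genes tested) and 4 higher (20.1% of all). The median was -0.20 for the nuclear genes and 0.16 for all genes on the log2 scale, and with the size factors of DESeq2 in edgeR the median of all genes moved to 0.29 and the counts to 14 lower and 7 higher. *Ndufv3*, a small subunit beside the NADH binding site of complex I, stood at 134, 198 and 224 CPM in the clones and at 46.3 to 66.8 CPM in the tumors (log2 fold change -1.82 ± 0.25, SE, adjusted p = 0.000470). *Cox4i1* was at 78.2, 214 and 187 CPM in the clones, and TBP clone 1, the lowest of them, lay just above the highest tumor (-1.47 ± 0.33 on the log2 scale, SE, adjusted p = 0.00645). TBP clone 1 had 7 reads of it, too few to fix that order. *Ndufa4* was among the 4 higher genes, at 22.3, 46.6 and 117 CPM in the clones and at 143 to 272 CPM in the tumors (log2 fold change 1.5, adjusted p = 0.0204), a call that was lost without TBP clone 2 (adjusted p = 0.0978). The 22.3 CPM of TBP clone 1 stands for 2 reads, under the floor of 33.5 CPM in that library. Of the glycolysis genes, 12 of 16 were lower in the tumors and 0 higher, and of the hypoxia response genes 8 of 10 were lower and 1 higher. Fibroblast markers went from 0.684 to 33.5 CPM in the clones to 10912 to 58184 CPM in the tumors (9 of 9 higher) and myeloid markers from 21.2 to 38.6 CPM to 1242 to 2332 CPM (9 of 10 higher). The epithelial sum was 2268 to 3807 CPM in the clones and 175 to 2592 CPM in the tumors (2 of 7 lower). Their part was not tested. The fit of all 27 libraries called 35 genes here, 10 higher and 25 lower, where it called 41.0% of all genes.

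Against the tumor-derived organoids the counts were even, with 10 of 80 genes higher (15.1% of all 10605 genes tested) and 10 lower (12.3% of all), and the median was 0.06, against 0.02 for all genes. Without tumors 5 and 6 the calls fell to 2 higher and 7 lower, and leaving out a single library gave 12 to 19 calls in all. The libraries without which it was 12 were tumor 2, tumor 5, tumor 6, T2-epi and T4-epi. *Cox4i1* was lower in tumors here too, against 157, 130, 166 and 136 CPM in T1-mes, T2-epi, T3-mes and T4-epi (log2 fold change -1.26 ± 0.21, SE, adjusted p = 0.00176). *Ndufv3*, at 107 to 190 CPM in the organoids, showed the same order (-1.33 on the log2 scale, adjusted p = 0.00134), as did *Uqcrc1*, at 37.8 to 44.2 CPM in the organoids and 17.3 to 23.7 CPM in the tumors (log2 fold change -0.91). *Ndufa4* stood at 44.1 to 124 CPM in the organoids, below every tumor (log2 fold change 1.29 ± 0.30, SE, adjusted p = 0.00951). Glycolysis genes were again lower in 12 and higher in 0 of 16.

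**Figure D3:**
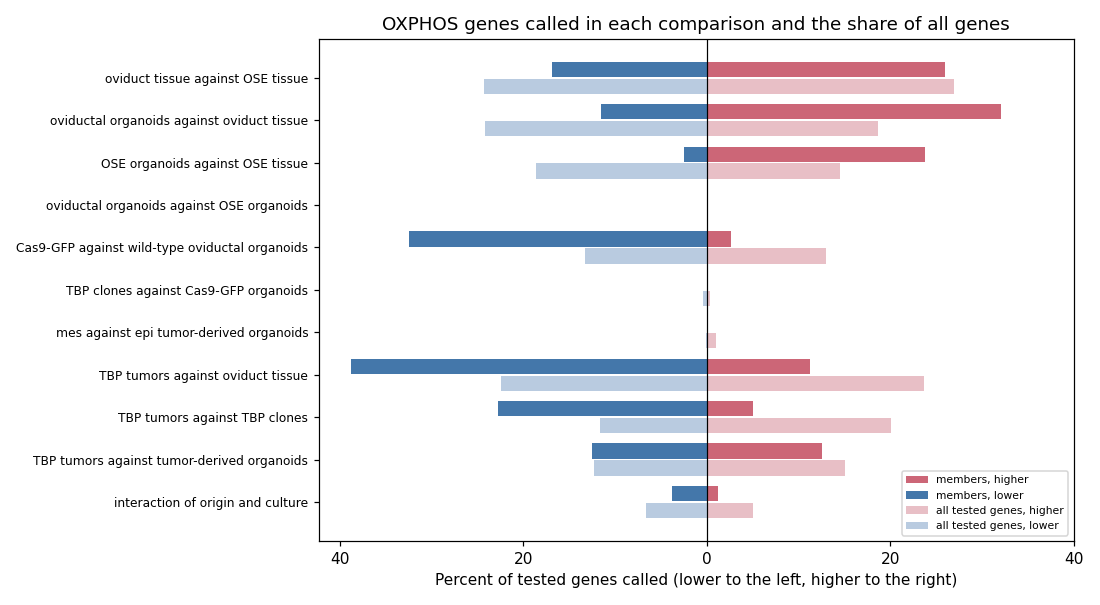
Share of genes called higher or lower in each comparison, in percent, for the nuclear oxidative phosphorylation genes beside all genes tested. In Cas9-GFP against wild-type organoids 32.5% of the nuclear genes are lower against 13.3% of all genes, and in tumors against oviduct tissue 38.8% are lower against 22.4%.

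**Figure D4:**
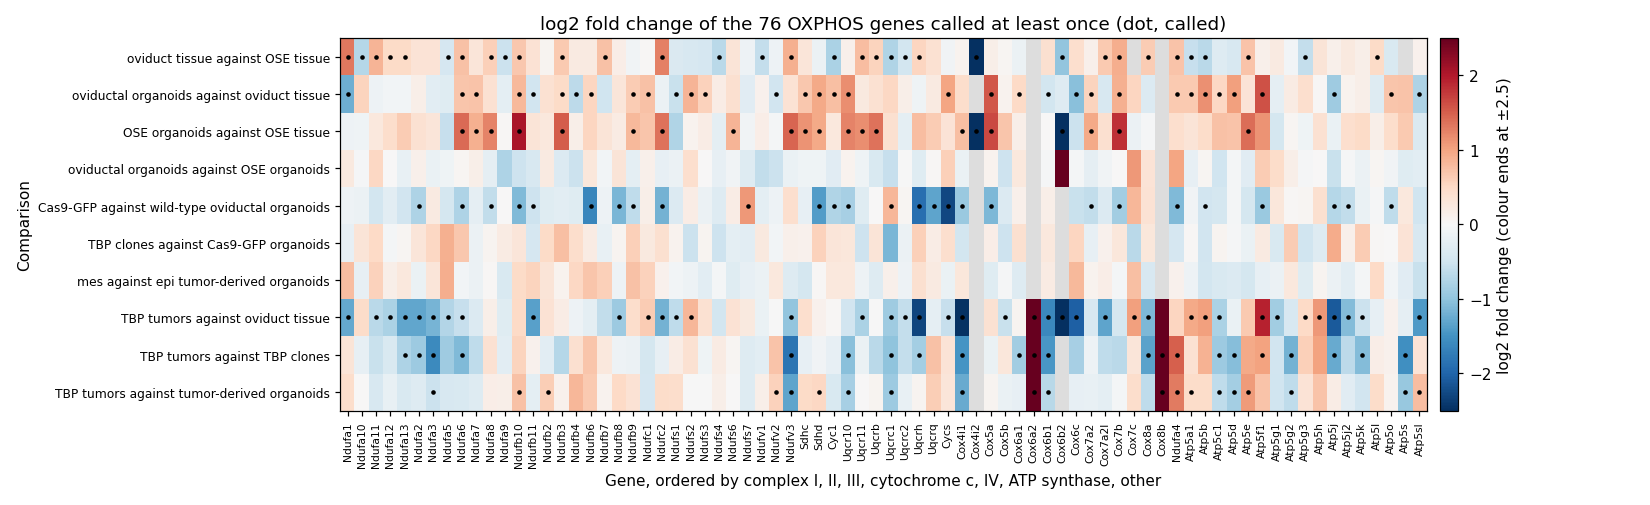
Log2 fold change of the 76 nuclear oxidative phosphorylation genes called at least once (columns, ordered by complex) in each comparison (rows), on a color scale centred at 0 that ends at 2.5 in either direction, with a dot on each called value and grey where a gene was not tested. Falls in Cas9-GFP organoids (25 genes) and in tumors against oviduct tissue (31 genes) run across complexes I, III, IV and V.

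Some isoforms of complex IV had reads in few of the groups. *Cox6a2* (chromosome 7, 128205435 to 128206387) and *Cox8b* (chromosome 7, 140898945 to 140900446) are the isoforms of heart and skeletal muscle, and *Cox8b* is the gene whose promoter is printed above. *Cox6a2* stood at 144, 42.8, 6.10, 88.9, 1159 and 697 CPM in tumors 1 to 6, at 0 in all oviduct tissue libraries and at no more than 4.10 CPM in any other library. Taking the floor of 3 counts per library as its level in oviduct tissue, the mean of the tumors was at least 109-fold higher, at least 60-fold higher without tumor 5 and at least 21.6-fold higher without tumors 5 and 6. TBP clone 1 had 0 reads of it, but its floor of 33.5 CPM lies above tumor 3, so these libraries could not be ordered. *Cox8b* was at 16.4, 3.50, 0, 7.57, 60 and 30.7 CPM in tumors 1 to 6 and at 0 in every other library. Both genes passed the filter on low counts through the tumors alone, with no library of the other group above its cutoff, so the direction was given by the filter and no p-value is printed for them. Where called, they are among the genes counted as higher in the tumors. Without genes that passed through 1 group alone, 8 were higher and 30 lower against oviduct tissue, 2 higher and 18 lower against the clones, and 8 higher and 10 lower against the tumor-derived organoids.

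The 12 skeletal muscle markers moved with these isoforms. All 12 had reads in the tumors, where their summed level was 3450, 804, 140, 1554, 27339 and 11258 CPM in tumors 1 to 6, and they summed to 0 to 54.5 CPM in the other libraries. *Cox6a2* and *Cox8b* followed this order of tumors exactly, from tumor 5 down to tumor 3. So did *Atp5h* and *Ndufb3*. *Cox7a1*, the muscle isoform of subunit 7a, which no comparison called, had 6, 1, 0, 1, 28 and 11 reads in tumors 1 to 6. Its CPM values had the same order, but tumors 2 and 4 had 1 read each and were ordered by library size alone. It also stood at 9.63 CPM in OSE organoids 2, above the 9.04 CPM of tumor 5. A chosen order of this kind, looked for after the values were seen, was met by 4 of the 80 tested nuclear genes (5%) and by 85 of the 10827 genes tested (0.785%). Among these 4, *Cox6a2* and *Cox8b* are muscle isoforms that passed the filter on low counts through the tumors alone. The shares are therefore a description and no test. The 8 cardiac and slow muscle markers in the table summed to 114, 161, 117, 37.8, 1367 and 865 CPM in tumors 1 to 6. They too were highest in tumors 5 and 6, but did not follow the order of the skeletal markers below these. Oviduct tissue held 213 to 274 CPM of them and OSE organoids 2 held 357 CPM. The part of muscle in the tumor values was not tested. The log2 fold change of *Atp5h* against oviduct tissue was 1.08 with all tumors and 0.66 without tumors 5 and 6 (adjusted p = 0.0207).

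**Figure D5:**
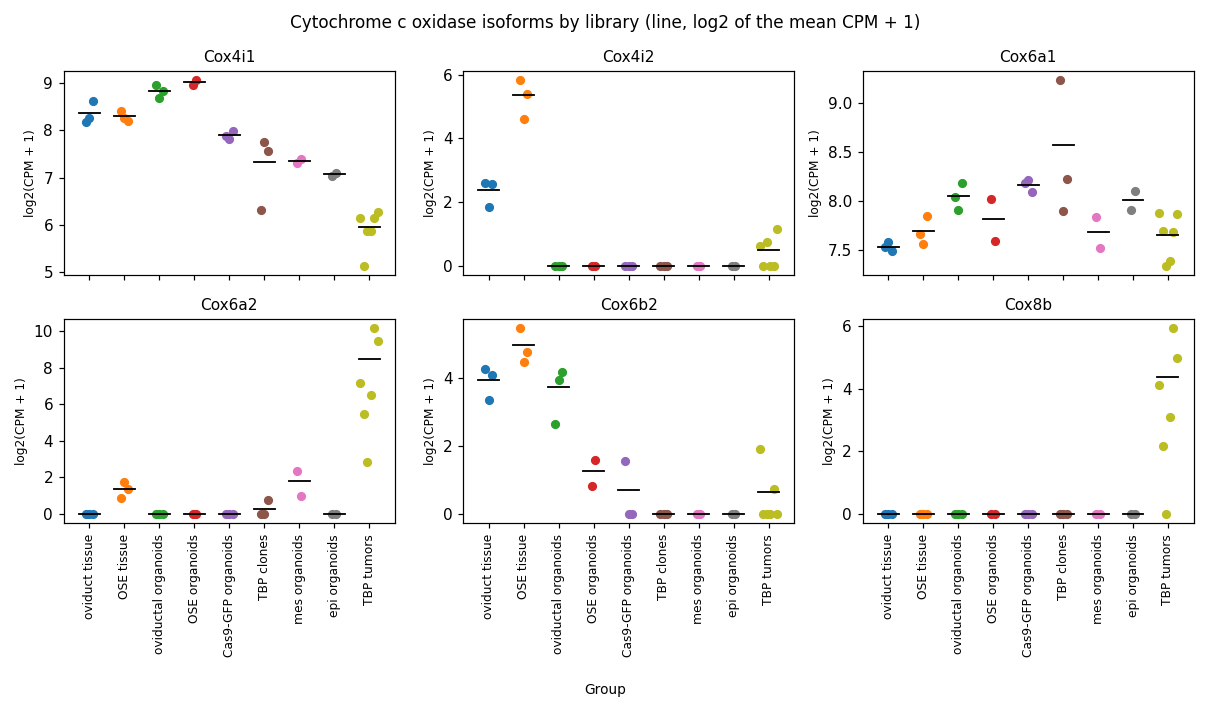
Levels of the complex IV isoforms *Cox4i1*, *Cox4i2*, *Cox6a1*, *Cox6a2*, *Cox6b2* and *Cox8b* in every library, as log2(CPM + 1). *Cox6a2* and *Cox8b* stand out in the tumors, *Cox4i2* in OSE tissue (23.3 to 55.9 CPM), and *Cox6b2* in both tissues and in wild-type oviductal organoids.

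*Cox4i2* and *Cox6b2* had the opposite distribution. *Cox4i2* was at 0 CPM in all organoid libraries and at no more than 1.23 CPM in any tumor. *Cox6b2* stood at 5.25, 14.4 and 17.1 CPM in wild-type oviductal organoids, overlapping with oviduct tissue, at 1.91 CPM in Cas9-GFP organoids 1 and at 0 in the other Cas9-GFP libraries, in all TBP clones and in all tumor-derived organoids. In the tumors it reached 2.73 CPM in tumor 1 and 0.646 CPM in tumor 5 and was at 0 in the remaining 4. Against oviduct tissue it passed the filter through the tissue libraries alone, and no test is given. The floor of TBP clone 1, 33.5 CPM, lies above all *Cox6b2* values of wild-type organoids and above *Cox4i2* in OSE tissue 2 (23.3 CPM). Its 0 reads therefore cannot be ordered against these libraries. In Cas9-GFP organoids 2 the floor of 5.18 CPM lies just under the lowest wild-type *Cox6b2* value.

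In 1 or more of the 10 comparisons between groups, 82 of the 83 genes were tested and 76 were called at least once (92.7%). Of all 12328 genes tested at least once, 80.0% were, so a call somewhere is common to most genes. The 7 that were never called were *Cox7a1*, *Ndufb5*, *Ndufs5*, *Ndufs8*, *Sdha*, *Sdhb* and *Uqcrfs1*, which include the catalytic subunits of succinate dehydrogenase (*Sdha*, *Sdhb*) and the iron-sulfur protein of complex III (*Uqcrfs1*). *Ndufs5* had 1 read in the whole series and shares its sequence with a near-identical gene. In all, 18 of the 83 genes share a stretch of at least 70 bases at 98% identity or more with another annotated gene within their last 400 bases, and their counts are uncertain. Positions were not compared, so copies elsewhere and genes that overlap at the same place were not told apart.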

How the data were processed

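RNA was measured by CEL-Seq2, which counts 3′ ends, in 27 libraries held by 11 submitted samples, and each column was treated as a library of its group. The authors aligned reads with BWA to GRCm38 and deposited raw counts of uniquely mapped reads on the sense strand, without collapsing molecular identifiers, and used DESeq2 1.18.0. The annotation is not given in the sources used here. A spike-in row (1 count) was left out. From the counts, edgeR 4.0.16 (R 4.3.3) was run within the libraries of each comparison, with filterByExpr, TMM factors and the quasi-likelihood test, adjusted by Benjamini-Hochberg over all genes tested, at a threshold of 0.05. The SE of a log2 fold change was not taken from the fit. It is the absolute fold change divided by the square root of the F statistic of the test. Levels are CPM with TMM factors. Fold bounds use a floor of 3 counts per library, which covers counting error only. No 2 replicate libraries agreed within counting noise (33 pairs, lowest chi-square per gene 2.53). Reads that copy the same molecule can raise this value, so it cannot show that replicates are independent. Alternatives were DESeq2 1.42.0, RLE factors, no filter, a fit of all libraries, a replicate block, and each library left out. Named genes were the 3 largest called changes in each direction with a mean of at least 10 CPM, complex IV and ATP synthase isoforms, *Cycs*, *Cyc1* and the *Sdh* genes. Members and lists were chosen with earlier results of these data known. Fitting steps were tested on simulated data.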

Additional observations from a re-analysis of the deposited data

Results flagged for a closer look

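The difference between organoids and tissue was unequal for oviduct and OSE in 4 nuclear genes, by the interaction term of edgeR over the 11 libraries of these groups. They are 4 of 80 tested (5%), below the 11.7% of all 11458 genes that were called. *Ndufc2* had a log2 interaction of -1.39 (adjusted p = 0.0107) and was called without each of the 11 libraries in turn. *Cox6b2* had one of 4.02. Between OSE organoids and OSE tissue it passed the filter on low counts through the tissue alone, so no p-value is printed for it here either. *Cox6b2* stood at only 0.763 and 2.03 CPM in the OSE organoids, so its size rests on few reads. *Ndufc2* stood at 387 to 549 CPM in oviduct tissue, 416 to 510 CPM in its organoids, 176 to 251 CPM in OSE tissue and 470 and 594 CPM in OSE organoids. *Ndufa1* had -1.0 (adjusted p = 0.0499) and was called in 2 of 11 fits with 1 library left out, those without OSE tissue 2 or OSE organoids 1, with adjusted p up to 0.10 in the others. *Atp5e* had -0.94 (adjusted p = 0.0392) and was called in 1 of 11, the fit without OSE organoids 2, with adjusted p up to 0.0817.

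Single libraries also stood apart from their group by Dixon's criterion. In the tumors, *Cox6b2* in tumor 1 was 2.73 CPM with the next at 0.646 CPM, and *Ndufa10* in tumor 6 was 121 CPM with the next at 58.7 CPM. In the tumor-derived organoids, *Ndufb11* in T3-mes was 245 CPM with the next at 146 CPM, *Ndufs7* in T4-epi was 37.4 CPM with the next at 29.9 CPM, and *Uqcrq* in T1-mes was 462 CPM with the next at 346 CPM. These are 2 of 81 genes examined in the tumors and 3 of 79 in the tumor-derived organoids, where chance marks about 1 in 20.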

How the results depend on the processing

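With each library left out in turn, the number of nuclear genes called ran from 22 to 32 for oviduct against OSE tissue, 20 to 33 for oviductal organoids against tissue, 11 to 38 for OSE organoids against tissue, 0 to 2 between organoids of both origins, 18 to 25 for Cas9-GFP organoids, 0 to 0 for TBP clones and for mesenchymal lines, 31 to 41 for tumors against tissue, 15 to 23 against clones, 12 to 19 against tumor-derived organoids and 2 to 11 for the interaction. A single fit of all 27 libraries called 10, 17, 14 and 35 genes for oviduct against OSE tissue, oviductal organoids against tissue, Cas9-GFP organoids and tumors against clones. Without the filter on low counts, tumors against tumor-derived organoids gave 13 and the interaction 2 calls, and DESeq2 gave 7 for the interaction. Without tumors 5 and 6, an alternative chosen after seeing the data, tumors against tumor-derived organoids gave 9. Their causes were not tested. The replicate number as a block gave 39, 33, 28, 0 and 0 calls (tissues, oviductal organoids against tissue, Cas9-GFP organoids, TBP clones, mesenchymal lines), against 33, 34, 27, 0 and 0 without it. Same-numbered libraries correlated at 0.03 to 0.121, not over 0.1 in every pair, and the labels name nothing that a number marks, so no block is used elsewhere. In the 4 comparisons of 3 against 3 each library correlated best with its own number, a hint from the data that pairing may exist. Of 894 alternative values for named genes, 772 kept their direction and call, 122 kept the direction without the call and 0 reversed. Depth limits TBP clone 1 most.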
